A study of Vernicia fordii and Jatropha curcas with 4 samples.

Results

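The ratio between the libraries numbered 8 and 7 was compared, gene by gene, between seeds, still developing, of 2 oil trees, the physic nut Jatropha curcas and the tung tree Vernicia fordii, both of the spurge family. All 4 libraries of the series entered, 2 per species, each made from RNA of 3 seeds mixed together, and none is a replicate of another. The seeds came from three-year-old trees. Jatropha was sampled 29 and 37 days, and Vernicia 90 and 135 days, after pollination, and each species was sampled at an early and at a fast stage of oil accumulation. The labels name the source as endosperm and the tissue as seeds, without saying whether seed coats were removed. No label ties the numbers 7 and 8 to a stage, or says whether equal numbers stand for equal stages, so nothing below has a direction in time.

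The species share no gene models here, and the common key is the Arabidopsis (TAIR10) locus code that the authors attached to their assembled contigs. RPKM, the reads of a contig scaled to its length and to the library's mapped reads, was summed over the contigs of each code. Of 11415 codes found in both tables, 5929 reached 10 RPKM in at least 1 library of each species and were compared. They drew on 11248 Jatropha and 10490 Vernicia contigs. For each code the log2 ratio of library 8 to library 7 was taken after adding 1 RPKM to both. It was centred on its median over the compared codes, which was -1.05 in Jatropha and -0.50 in Vernicia. Below, "ratio" means this centred log2 ratio and "species difference" means the Jatropha ratio minus the Vernicia ratio, so 2 is a 4-fold difference. Adding 1 RPKM understates the ratios of weakly detected codes. With 1 library per species and stage there was no test, and every statement below describes these 4 libraries by size only.

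During maturation, oil seeds fill with reserves. Storage proteins are packed in vacuoles, and triacylglycerol is made from sucrose by way of plastid fatty acid synthesis and collects in oil bodies coated with oleosins. Late in maturation, seeds that survive drying accumulate late embryogenesis abundant (LEA) proteins and small heat shock proteins, while photosynthesis and growth decline. Jatropha oil is rich in oleic and linoleic acids, and tung oil is rich in eleostearic acid, a fatty acid with conjugated double bonds. Gene names and roles below are those of Arabidopsis, assigned from general knowledge of the codes, since the deposited tables hold codes without names. Of 572 codes in 32 lists of seed-related genes, 231 were compared, 129 were in both tables under the limit, 45 and 42 were in the Jatropha or Vernicia table only, and 125 were in neither.

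The ratios spread more widely in Jatropha. Their SD over codes was 1.49 in Jatropha and 1.01 in Vernicia, and their interquartile range was 1.29 and 0.81. At least 4-fold higher in library 8 were 396 codes (6.68%) in Jatropha and 278 (4.69%) in Vernicia. At least 4-fold lower were 364 (6.14%) in Jatropha but 45 (0.759%) in Vernicia. Across the 5929 codes, which share the same 4 libraries and are not independent replicates, the ratios of both species were weakly related (Pearson r = 0.23, Spearman rho = 0.1).

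The species difference reached 4-fold towards Jatropha in 345 codes (5.82%) and towards Vernicia in 530 (8.94%). Without the centring these counts were 214 and 823. At 2-fold they were 1039 (17.5%) and 1213 (20.5%). The Jatropha ratio was the larger part of the difference in 315 of the 345 and 345 of the 530. Jatropha ratios spread more widely over all codes, for which this share was not taken, so these counts do not set the 4-fold codes apart. In both species alike, library 8 was at least 4-fold higher for 114 codes (1.92%) and at least 4-fold lower for 15 (0.253%). Opposite ratios of at least 4-fold were found in 33 codes lower in Jatropha and higher in Vernicia (0.557%) and in 7 of the reverse kind (0.118%). The codes nearest to the limits lay at 10.000 and 9.990 RPKM, at species differences of 2.001 and 1.999 and of -2.002 and -1.991, and at smaller shared ratios of 2.009 and 1.991 and of -2.009 and -1.999.

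**Figure D1:**
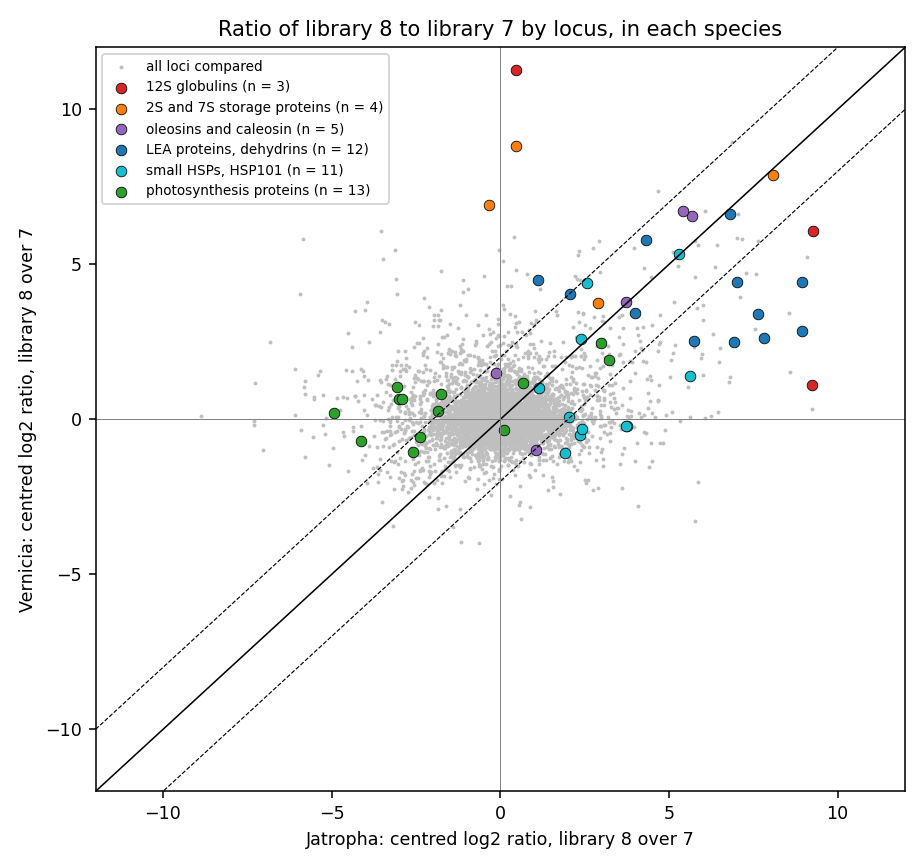
Centred log2 ratio of library 8 to library 7 in Jatropha (horizontal) and Vernicia (vertical) for 5929 Arabidopsis codes in grey, with 6 gene lists coloured. The solid line marks equal ratios and the dashed lines a 4-fold species difference. LEA proteins lie at the upper right, with 11 of 12 at least 4-fold higher in both libraries 8, against 1.92% of all codes. Of 13 photosynthesis proteins, 7 are at least 4-fold lower in library 8 of Jatropha, against 6.14% of all codes, and 4 lie to the right of 0.

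Storage proteins, defining markers of a filling seed, were abundant in both libraries 8. They served as a check on the seed label only, and endosperm and embryo were not told apart. The 12S globulins are the main salt-soluble storage proteins of many seeds. CRA1 (AT5G44120), a 12S globulin, stood in libraries 7 and 8 at 447 and 133634 RPKM in Jatropha and at 303 and 14503.5 in Vernicia, the order kept for every pair of values below. It was far higher in library 8 of both species, with ratios of 9.27 and 6.08. CRU2 (AT1G03880), another 12S globulin, stood at 18.0 and 11.5 RPKM in Jatropha but at 30.5 and 55441 in Vernicia. A further 12S code, AT1G03890, had the reverse pattern, at 138 and 40510 RPKM in Jatropha and 21.5 and 33.1 in Vernicia. CRU2 therefore had a species difference of -10.84 and AT1G03890 one of 8.14, both among the 15 largest in their direction.

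The species differences of single 12S codes, of both signs, were larger than that of the summed family. Over all 12S codes, RPKM stood at 647 and 174213 in Jatropha and at 355 and 69978 in Vernicia, with ratios of 9.12 and 8.12 and a species difference of 1.0. CRA1 was abundant in library 8 of both species, whereas CRU2 was so in Vernicia only and AT1G03890 in Jatropha only. The tables do not tell whether a code means the same gene in both species, and contigs of near-identical family members can share reads, so codes of one family are uncertain singly. Within CRA1 itself, contigs differed too: the strongest Jatropha contig stood at 306 and 99181 RPKM with a ratio of 9.39, and the strongest Vernicia contig at 7.63 and 13416.7 with a ratio of 11.1. Contigs of CRA1, RD22, FAD2 and CEP1 were examined singly after their values had been seen.

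The same held for 2S albumins, small sulphur-rich storage proteins. SESA1 (AT4G27140) was in the Jatropha table only, at 240 and 60526 RPKM. SESA3 (AT4G27160) stood at 25.3 and 16.3 RPKM in Jatropha and at 28.8 and 9593 in Vernicia, a species difference of -8.39. Summed over the 2S codes, the ratios were 8.88 and 8.83 and the species difference 0.04. Both species therefore had 2S albumin RNA that was higher in library 8 by nearly the same ratio.

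The 7S vicilin-like proteins, the other large storage globulin family, were less alike. PAP85 (AT3G22640) stood at 116 and 15361 RPKM in Jatropha and at 110 and 18669 in Vernicia, with ratios of 8.08 and 7.89. It was the code with the largest shared ratio of the whole comparison, when codes are ordered by the smaller of both ratios. A second vicilin-like code, AT2G28490, stood at 461 and 1676 RPKM in Jatropha and at 38.5 and 371 in Vernicia, with ratios of 2.91 and 3.74. A vicilin-like code of lower level, AT2G18540, stood at 11.6 and 3.84 RPKM in Jatropha and at 8.08 and 775 in Vernicia, a difference of -7.24. Summed over the family, RPKM stood at 938 and 17216 in Jatropha and at 158 and 19817 in Vernicia, which gave ratios of 5.25 and 7.46 and left a difference of -2.22. That sum includes the vicilin-like code AT4G36700, not compared because Vernicia did not reach the limit. It stood at 350 and 175 RPKM in Jatropha and at 1.13 and 1.85 in Vernicia. The size of the summed difference therefore depends in part on this code.

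**Figure D2:**
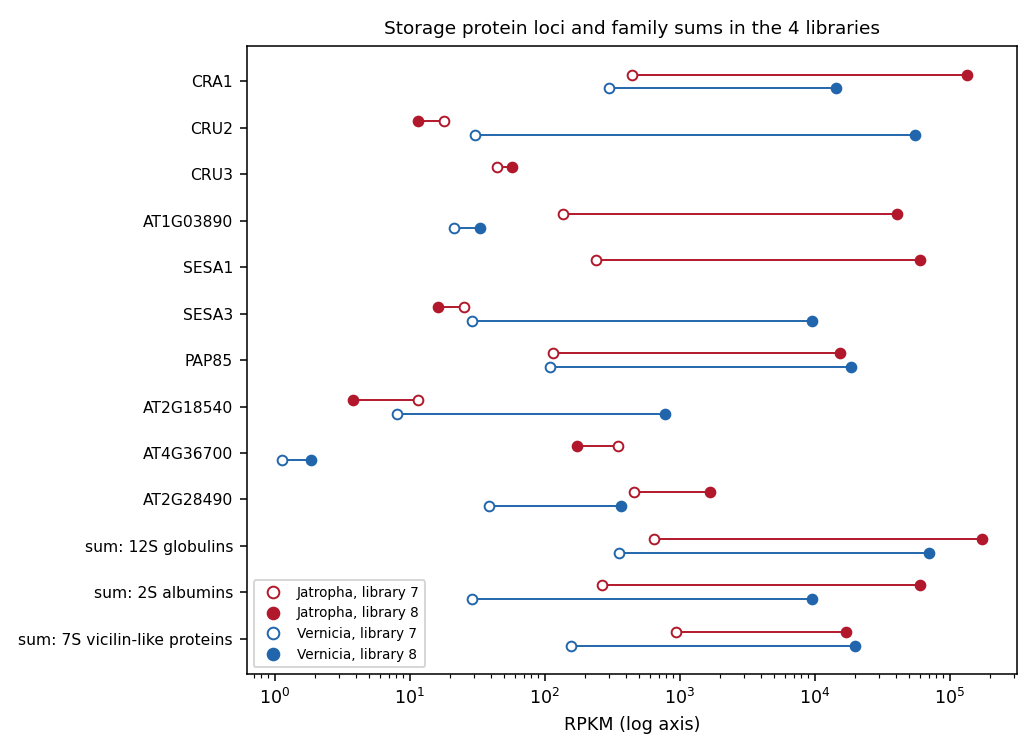
RPKM (log axis) of storage protein codes and family sums in library 7 (open circles) and library 8 (filled circles) of Jatropha (red) and Vernicia (blue); a species without circles has no entry for that code. Single codes such as CRU2 and SESA3 are far apart between species, while the 12S and 2S sums are higher in library 8 of both, with species differences of 1.0 and 0.04.

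Oleosins, the coat proteins of oil bodies, were higher as a sum in both libraries 8. OLEO1 (AT4G25140) stood at 335 and 8358 RPKM in Jatropha and at 59.0 and 3971 in Vernicia, with ratios of 5.69 and 6.55. OLEO2 (AT5G40420) stood at 615 and 12820 RPKM in Jatropha and at 19.2 and 1503 in Vernicia, with ratios of 5.43 and 6.72. The Vernicia ratio was the larger in both. Another oleosin code, AT3G18570, was lower in library 8 of Jatropha, at 844 and 373 RPKM. In Vernicia it stood at 26.2 and 53.6 RPKM, and its ratios were -0.13 and 1.51. OLEO5 (AT3G01570) did not reach the limit in Jatropha, at 6.39 and 3.67 RPKM, and stood at 60.8 and 5040 in Vernicia. The oleosin sum was 1836 and 21788 RPKM in Jatropha and 179 and 10605 in Vernicia, a species difference of -1.77. CLO4 (AT1G70670), a caleosin, which is a calcium-binding oil body protein, was the only compared member of its list at least 4-fold apart, with ratios of 1.06 and -0.99. The caleosin sum had ratios of 2.83 and 2.79.

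LEA proteins and dehydrins, which protect cells during drying, had positive ratios in each species for all 12 codes compared. Library 8 was at least 4-fold higher in both species for 11 of them, against 1.92% of all codes. The median ratio was 6.87 in Jatropha and 3.74 in Vernicia, and the median species difference was 2.91, against -0.04 over all codes. The difference reached 4-fold towards Jatropha in 7, against 5.82% of all codes, and towards Vernicia in 1, close to the 8.94% of all codes. AT3G22490, a seed maturation type LEA protein, stood at 7.06 and 1926 RPKM in Jatropha and at 4.49 and 27.1 in Vernicia, a difference of 6.09. LEA4-5 (AT5G06760) stood at 63.3 and 6179 RPKM in Jatropha and at 14.6 and 114 in Vernicia, a difference of 4.25. Both differences were smaller with the strongest Vernicia contig alone. Its ratio was 6.12 for LEA4-5, against 3.39 for the summed code, and 4.1 for AT3G22490, against 2.86. RAB18 (AT5G66400), an abscisic acid inducible dehydrin, stood at 4.32 and 1259 RPKM in Jatropha and at 2.06 and 45.4 in Vernicia. Its ratios were 8.94 and 4.43.

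The LEA codes were not all alike. EM6 (AT2G40170), which binds water in drying seeds, stood at 23.9 and 1465 RPKM in Jatropha and at 3.94 and 18.6 in Vernicia, a difference of 4.44. Its strongest Vernicia contig alone had a ratio of 4.07, against 2.49 for the summed code. LEA4-1 (AT1G32560) stood at 6.88 and 427 RPKM in Jatropha and at 2.65 and 252 in Vernicia, and its ratios of 6.81 and 6.62 were nearly equal. ECP63 (AT2G36640) was also close between species, with ratios of 3.98 and 3.42. SAG21 (AT4G02380), a LEA protein of mitochondria, stood at 103 and 109 RPKM in Jatropha and at 13.6 and 233 in Vernicia, a difference of -3.37. The summed list gave the opposite sign to its median, -0.89, and the dehydrin ERD14 (AT1G76180), in the Jatropha table only, stood at 4815 and 393 RPKM.

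Small heat shock proteins, chaperones that hold unfolding proteins, and the disaggregase HSP101 were higher than the median code in Jatropha library 8 for all 11 codes compared and in Vernicia library 8 for 6. The median ratio was 2.41 in Jatropha and 0.08 in Vernicia. HSP18.2 (AT5G59720) stood at 75.9 and 1454 RPKM in Jatropha and at 20.1 and 606 in Vernicia, with ratios of 5.29 and 5.35. HSP22 (AT4G10250), of the endoplasmic reticulum, stood at 10.3 and 270 RPKM in Jatropha and at 21.2 and 40.8 in Vernicia, a difference of 4.22. HSP23.6 (AT4G25200), of mitochondria, stood at 207 and 379 RPKM in Jatropha and at 517 and 172 in Vernicia. HSP101 (AT1G74310) stood at 21.7 and 57.4 RPKM in Jatropha and at 123 and 69.1 in Vernicia. The last 3 thus leaned towards library 8 in Jatropha, and HSP23.6 and HSP101 towards library 7 in Vernicia. The species difference was at least 4-fold towards Jatropha in 6 of the 11, against 5.82% of all codes. It was so towards Vernicia in none, which is near the 8.94% of all codes.

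Of the seed maturation regulators, 8 were compared, and their species differences had both signs, with a median of -1.15. At least 4-fold apart were 1 towards Jatropha (5.82% of all codes) and 2 towards Vernicia (8.94% of all codes). L1L (AT5G47670), a LEC1-type subunit of the NF-Y transcription factor, stood at 535 and 57.0 RPKM in Jatropha and at 93.6 and 268 in Vernicia. Its ratios of -2.16 and 2.01 were opposite, and the Vernicia ratio reached 4-fold only with centring, being 1.51 without it. bZIP67 (AT3G44460), a partner of such NF-Y complexes in Arabidopsis seeds, stood at 153 and 84.0 RPKM in Jatropha and at 13.2 and 196 in Vernicia, a difference of -4.10. ABI3 (AT3G24650), a B3 factor that turns on maturation genes, stood at 35.5 and 76.9 RPKM in Jatropha and at 13.6 and 79.8 in Vernicia. Its ratios of 2.14 and 2.97 were both over 4-fold, in Jatropha only with centring. WRI1 (AT3G54320), the AP2 factor that turns on glycolysis and fatty acid synthesis genes, stood at 124 and 47.9 RPKM in Jatropha and at 32.2 and 48.7 in Vernicia, a difference of -1.39. WRI4 (AT1G79700), a relative known for cutin and wax synthesis, had the reverse sign at 3.21.

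Carbon for oil enters by sucrose cleavage. All 5 codes of that list had a lower ratio in Jatropha than in Vernicia, against 3040 of all 5929 codes. At least 4-fold apart towards Vernicia were 2 of the 5, against 8.94% of all codes. None was so towards Jatropha, which is near the 5.82% of all codes. SUS4 (AT3G43190), a sucrose synthase, stood at 147 and 8.07 RPKM in Jatropha and at 84.6 and 160 in Vernicia, a difference of -4.39. SUS2 (AT5G49190), the sucrose synthase typical of maturing Arabidopsis seeds, stood at 99.6 and 48.1 RPKM in Jatropha and at 105 and 291 in Vernicia. The sucrose synthase sum stood at 303 and 75.2 RPKM in Jatropha and at 309 and 607 in Vernicia. The difference of that sum was -2.42. VI2 (AT1G12240), a vacuolar invertase, differed by -3.33, and CWINV1 (AT3G13790), a cell wall invertase, was lower in library 8 of both, with ratios of -2.23 and -2.04.

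The 6 codes of plastid glycolysis and carbon import and the 6 of starch synthesis had median differences of 0.03 and 0.06, against -0.04 over all codes. None was 4-fold apart, which in lists of this size is near the background of 5.82% towards Jatropha and 8.94% towards Vernicia. Among 20 codes of plastid fatty acid synthesis, 18 had a ratio above the median code in each species, and the median ratio was 0.81 in Jatropha and 0.85 in Vernicia. CAC3 (AT2G38040), a subunit of acetyl-CoA carboxylase, stood at 65.5 and 114 RPKM in Jatropha and at 78.1 and 118 in Vernicia. KAR (AT1G24360), the ketoacyl-ACP reductase, stood at 72.2 and 107 RPKM in Jatropha and at 54.3 and 127 in Vernicia, and its ratios were 1.61 and 1.71. ACP2 (AT1G54580), an acyl carrier protein, stood at 1914 and 1627 RPKM in Jatropha and at 161 and 125 in Vernicia, and ACP4 (AT4G25050), another one, at 3.21 and 0.80 and at 510 and 1158. The plastid acyl carrier proteins together had ratios of 0.81 and 1.44. The only code of the 20 that was 4-fold apart was KASIII (AT1G62640), which joins the first carbons of the chain, at 2.14, and 1 of 20 is near the 5.82% of all codes.

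**Figure D3:**
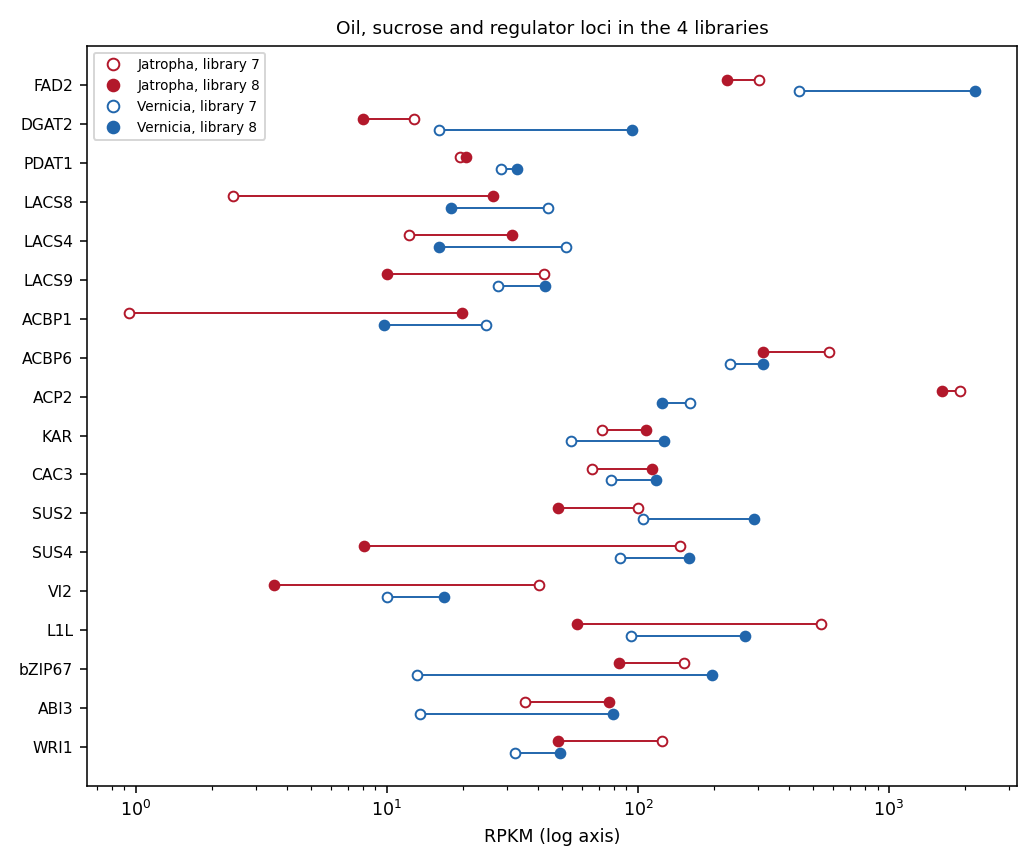
RPKM (log axis) of codes for oil synthesis, sucrose cleavage and seed regulators in library 7 (open circles) and library 8 (filled circles) of Jatropha (red) and Vernicia (blue). KAR and CAC3 stand higher in library 8 of each species, whereas SUS4 and L1L stand lower in library 8 of Jatropha and higher in library 8 of Vernicia.

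Oil assembly was mixed, with 4 of 18 codes at least 4-fold apart towards Jatropha (5.82% of all codes) and 3 towards Vernicia (8.94% of all codes), and a median difference of 0.34. FAD2 (AT3G12120), the desaturase that makes linoleate from oleate, stood at 302 and 226 RPKM in Jatropha and at 440 and 2197 in Vernicia, a difference of -2.19. The FAD2 family is known to include the tung enzyme FADX that makes eleostearic acid, and the tables do not say whether any contig is that enzyme. The strongest Vernicia FAD2 contigs stood at 225 and 1198 RPKM and at 214 and 999, with ratios of 2.91 and 2.72. The strongest Jatropha contig stood at 290 and 54.3 RPKM with a ratio of -1.35, and the next at 4.22 and 168 with a ratio of 6.07. The small Jatropha ratio of this code, 0.63, therefore joined contigs of opposite direction.

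DGAT2 (AT3G51520), an enzyme of the last acylation step that is known in tung for its use of eleostearic acid, stood at 12.8 and 8.0 RPKM in Jatropha and at 16.2 and 95.0 in Vernicia. The Vernicia ratio was 2.99, against 0.43 in Jatropha. PDAT1 (AT5G13640), which makes triacylglycerol from phospholipid, was close between species, with ratios of 1.12 and 0.70. Acyl-CoA synthetases and acyl-CoA-binding proteins had differences of both signs. LACS8 (AT2G04350), an acyl-CoA synthetase, stood at 2.44 and 26.51 RPKM in Jatropha and at 43.9 and 17.9 in Vernicia, a difference of 4.79. ACBP1 (AT5G53470), an acyl-CoA-binding protein of membranes, stood at 0.94 and 19.9 RPKM in Jatropha and at 24.9 and 9.76 in Vernicia, a difference of 5.24. LACS9 (AT1G77590) differed by -2.03, and the summed acyl-CoA synthetases by 1.02. ACBP6 (AT1G31812), the most abundant acyl-CoA-binding protein of the list, stood at 579 and 315 RPKM in Jatropha and at 233 and 314 in Vernicia, a difference of -0.76. ACBP4 (AT3G05420) differed by -0.97.

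Both species had enzymes of the glyoxylate cycle, which turns fatty acid carbon into sugar, among the codes with the largest shared ratios. ICL (AT3G21720), isocitrate lyase, stood at 2.49 and 112 RPKM in Jatropha and at 6.75 and 580 in Vernicia, with ratios of 6.07 and 6.73. MLS (AT5G03860), malate synthase, stood at 7.78 and 495 RPKM in Jatropha and at 1.74 and 956 in Vernicia, with ratios of 6.87 and 8.95. The other 13 codes of oil breakdown and beta-oxidation did not share this size, and the median ratios of the whole list were 0.59 and 0.72. PXA1 (AT4G39850), the peroxisomal fatty acid importer, was 4-fold apart towards Jatropha at 3.26, and MLS towards Vernicia at -2.08. In each direction 1 code of 15 is near the 5.82% and 8.94% of all codes.

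Codes for the thylakoid machinery, which captures light and moves electrons, divided the species. Of 13 photosynthesis codes compared, 7 had a species difference of at least 4-fold towards Vernicia, against 8.94% of all codes. None had one towards Jatropha, against 5.82%. PSBO2 (AT3G50820), of the oxygen-evolving complex, stood at 113 and 0.81 RPKM in Jatropha and at 56.8 and 46.0 in Vernicia, a difference of -5.13. LHCB6 (AT1G15820), a light-harvesting protein of photosystem II, stood at 50.5 and 0.41 RPKM in Jatropha and at 35.8 and 14.99 in Vernicia. PETE2 (AT1G20340), the electron carrier plastocyanin, stood at 43.0 and 1.79 RPKM in Jatropha and at 46.9 and 52.2 in Vernicia. In Jatropha, PSBO2, LHCB6 and PETE2 were all far lower in library 8 than in library 7. PSAL (AT4G12800), of photosystem I, was listed at 0 in Jatropha library 8, so its -4.08 depends on the added 1 RPKM.

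Summed over all thylakoid codes of each table, RPKM stood at 572 and 59.6 in Jatropha, over 29 codes, and at 566 and 514 in Vernicia, over 32 codes. The ratios were -2.19 and 0.36 and the species difference -2.55. Counting all photosynthesis codes in a table, whether compared or not, 30 of 34 were lower in library 8 in Jatropha and 18 of 37 in Vernicia, as uncentred values, on which the median code was lower in library 8 as well. RBCS1A and PRK, of the Calvin cycle, which fixes carbon, did not follow. RBCS1A (AT1G67090), a small subunit of Rubisco, stood at 23.7 and 110 RPKM in Jatropha and at 72.4 and 192 in Vernicia. PRK (AT1G32060), phosphoribulokinase, stood at 28.9 and 112 RPKM in Jatropha and at 8.65 and 36.2 in Vernicia. Their ratios, 3.21 and 2.97 in Jatropha and 1.90 and 2.45 in Vernicia, were all positive. The Calvin cycle sum, over 5 codes in each species, had ratios of 2.87 and 1.95. It stood at 63.8 and 228 RPKM in Jatropha and at 85.7 and 236 in Vernicia. RBCS1A and PRK made up most of it, so it says little of the other codes. In RNA of whole tissue, fewer cells of a type and less RNA per cell cannot be told apart.

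**Figure D4:**
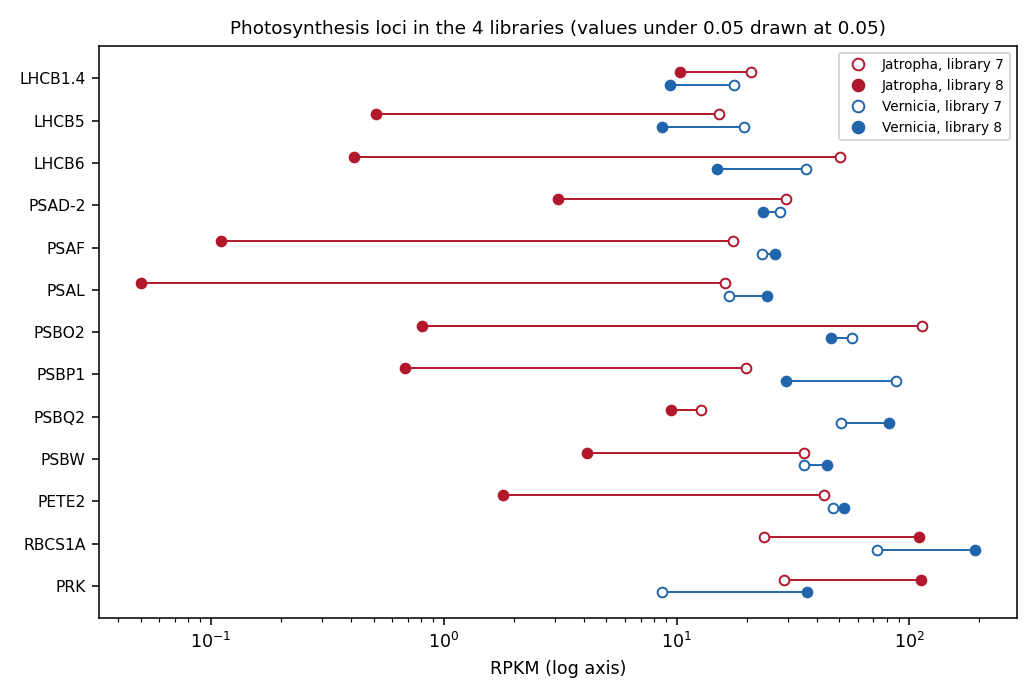
RPKM (log axis) of the 13 photosynthesis codes compared, in library 7 (open circles) and library 8 (filled circles) of Jatropha (red) and Vernicia (blue); PSAL in Jatropha library 8 is listed at 0 and drawn at 0.05. PSBO2 and LHCB6 reach 0.81 and 0.41 RPKM in Jatropha library 8, while RBCS1A and PRK are higher in library 8 of both species.

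Among genes of vacuoles and cell enlargement, several were also low in Jatropha library 8. TIP1;1 (AT2G36830), a water channel of the vacuole in growing tissue, stood at 1190 and 7.4 RPKM in Jatropha and at 318 and 249 in Vernicia, a difference of -6.25. TIP2;1 (AT3G16240), another one, stood at 207 and 2.96 RPKM in Jatropha and at 125 and 144 in Vernicia. The plasma membrane water channel PIP2;7 (AT4G35100) was close, at ratios of -0.15 and -0.38. TIP3;2 (AT1G17810), the vacuole water channel of maturing seeds, was higher in library 8 of both, at 829 and 1953 RPKM in Jatropha and at 23.2 and 670 in Vernicia. PER1 (AT1G48130), a peroxiredoxin of maturing seeds, had the larger ratio in Jatropha, 5.94 against 1.99.

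Of 12 primary wall codes, 5 were at least 4-fold apart towards Vernicia, against 8.94% of all codes. None was towards Jatropha, which is near the 5.82% of all codes. XTH9 (AT4G03210), a xyloglucan endotransglucosylase of expanding walls, stood at 129 and 2.59 RPKM in Jatropha and at 296 and 180 in Vernicia. EXPA6 (AT2G28950), an expansin that loosens walls, stood at 70.4 and 1.91 RPKM in Jatropha and at 15.8 and 10.7 in Vernicia, a difference of -3.54. XTH16 (AT3G23730) was lower in library 8 of both species, with ratios of -2.92 and -2.24. XTH28 (AT1G14720) stood at 92.9 and 4.94 RPKM in Jatropha and at 481 and 84.2 in Vernicia, so it too was lower in library 8 of both. The 7 codes for cell division and DNA replication had negative ratios in both species, with medians of -1.64 and -0.76. KNOLLE (AT1G08560), a syntaxin of the dividing cell plate, stood at 42.8 and 0.24 RPKM in Jatropha and at 17.5 and 4.26 in Vernicia, and differed by -2.78.

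Codes that fold and process storage proteins did not move as one group. CRT1 (AT1G56340), the chaperone calreticulin, stood at 1912 and 140 RPKM in Jatropha and at 1024 and 479 in Vernicia, a difference of -2.12. PDIL1-1 (AT1G21750), a protein disulphide isomerase, stood at 756 and 255 RPKM in Jatropha and at 175 and 427 in Vernicia. It was lower in library 8 of Jatropha and higher in library 8 of Vernicia. Beta-VPE (AT1G62710), the vacuolar processing enzyme that cleaves storage protein precursors, stood at 239 and 1999 RPKM in Jatropha and at 428 and 344 in Vernicia, a difference of 3.92. CEP1 (AT5G50260) is a cysteine endopeptidase with a KDEL tail, of a kind that in castor bean is known from the dying endosperm. It stood at 1073 and 39.4 RPKM in Jatropha and at 142 and 138 in Vernicia. Its strongest Jatropha contig stood at 892 and 9.52 RPKM.

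Single steps of hormone synthesis were far apart between the species. GA20OX1 (AT4G25420), which makes a late gibberellin precursor, stood at 335 and 0.24 RPKM in Jatropha and at 25.1 and 8.37 in Vernicia, a difference of -6.05. GA3OX1 (AT1G15550), which makes the active gibberellin, stood at 12.6 and 3.25 RPKM in Jatropha and at 157 and 6.05 in Vernicia, a difference of 3.36. GA2OX8 (AT4G21200), which inactivates gibberellins, was not compared because Jatropha did not reach the limit, and stood at 0.39 and 6.89 RPKM in Jatropha and at 47.3 and 4.91 in Vernicia. NCED6 (AT3G24220), of abscisic acid synthesis, stood at 0.23 and 22.7 RPKM in Jatropha and at 45.6 and 30.7 in Vernicia, a difference of 5.38. The 8 gibberellin codes had a median difference of 0.20 and the 4 abscisic acid codes one of 0.78.

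Defence and stress proteins held the extremes in both directions among listed codes outside the storage proteins. RD22 (AT5G25610), a BURP-domain protein induced by drought, stood at 44.7 and 13274 RPKM in Jatropha and at 132 and 117 in Vernicia, a difference of 8.90. Its strongest Jatropha contig stood at 35.5 and 12112 RPKM, and of its Vernicia contigs the strongest stood at 112 and 24.6 and another at 1.51 and 62.0. PR1 (AT2G14610), a secreted pathogenesis-related protein, stood at 569 and 3.44 RPKM in Jatropha and at 2.70 and 42.0 in Vernicia. Its ratios of -5.95 and 4.04 were opposite, and its difference was -9.99. The metallothionein MT3 (AT3G15353), which binds metal ions, was lower in library 8 of both, at 871 and 45.2 RPKM in Jatropha and at 4540 and 297 in Vernicia. MT2A (AT3G09390), another metallothionein, stood at 6395 and 32296 RPKM in Jatropha and at 55.8 and 89.7 in Vernicia, a difference of 2.21. The 12 codes of the list had a median difference of -0.03.

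**Figure D5:**
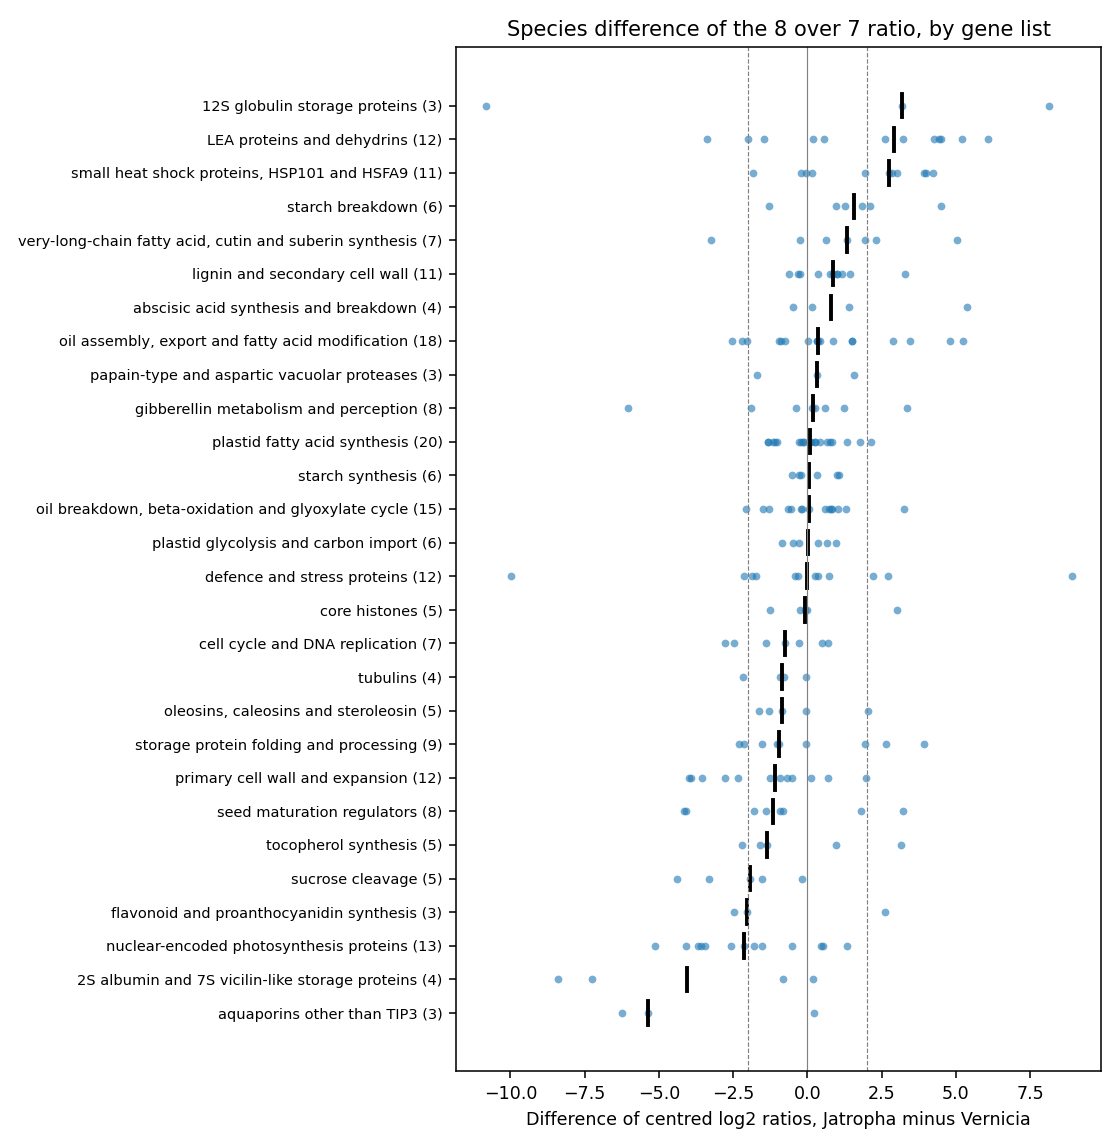
Species difference of the centred log2 ratio (Jatropha minus Vernicia) for each code compared (points), by gene list with at least 3 codes compared (number in brackets). Black bars are medians and dashed lines a 4-fold difference. Medians run from -5.37 for the aquaporins to 3.19 for the 12S globulins, and the fatty acid synthesis median is 0.1. Of those 20 codes, 3 were at least 2-fold apart towards Jatropha, near the 17.5% of all codes. Towards Vernicia 5 were, near the 20.5% of all codes.

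Smaller lists held single codes far apart. KCS10 (AT2G26250), a very-long-chain fatty acid enzyme of the epidermis, stood at 2.76 and 11.3 RPKM in Jatropha and at 28.6 and 3.29 in Vernicia, a difference of 5.04. MIPS2 (AT2G22240), which makes inositol for phytate and raffinose sugars, stood at 90.2 and 520 RPKM in Jatropha and at 64.6 and 36.3 in Vernicia. DPE2 (AT2G40840), which uses maltose from starch, had ratios of 2.51 and -1.97. VTE1 (AT4G32770), tocopherol cyclase, had ratios of 3.60 and 0.45, and HPPD (AT1G06570), at the head of the same pathway, had -1.54 and 0.64. Codes named here outside the naming rule were chosen after their values were seen.

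Marker lists for seed coat and vascular tissue were in both species, and their part in these results was not tested. The 11 lignin and secondary wall codes had median ratios of 0.55 in Jatropha and -0.54 in Vernicia, and C3H1 (AT2G40890), of lignin synthesis, stood at 25.3 and 17.61 RPKM in Jatropha and at 187 and 18.7 in Vernicia. The 3 flavonoid codes had median ratios of -1.05 and 0.37. Their species differences had both signs: BAN (AT1G61720), of the proanthocyanidins of the seed coat, stood at 18.4 and 3.52 RPKM in Jatropha and at 27.9 and 53.8 in Vernicia, a difference of -2.48. CHS (AT5G13930), chalcone synthase at the head of the pathway, stood at 40.4 and 65.5 RPKM in Jatropha and at 13.8 and 4.64 in Vernicia, a difference of 2.62. Summed over the list, the difference was 0.29.

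Most of the codes at the extremes had no role assigned here. Of the 15 with the largest difference in each direction, 3 had one. The lowest difference was that of AT4G36740, at 128 and 0.09 RPKM in Jatropha and at 8.24 and 365 in Vernicia, and AT1G14520 was next among codes without a role at -9.63. The highest was that of AT3G44220, at 0.38 and 35.4 RPKM in Jatropha and at 21.4 and 0.64 in Vernicia, and AT1G64950 followed among codes without a role at 7.87. Of the 114 codes that both libraries 8 held at a ratio of at least 4-fold, 28 were in the lists. So were 3 of the 15 lower in both, MT3, XTH16 and CWINV1. Of all 5929 codes compared, 231 were in the lists, which were chosen with earlier results of these data known. AT2G31980 was the highest of the shared codes without a role, at 19.9 and 1329 RPKM in Jatropha and at 11.3 and 860 in Vernicia. AT5G15410 was the lowest of them, at 41.0 and 0.77 RPKM in Jatropha and at 62.9 and 6.12 in Vernicia.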

How the data were processed

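Each species has 1 table, deposited by the authors, of RPKM per assembled contig with an Arabidopsis (TAIR10) locus code where one was assigned. The unit is that of the deposited tables' names. Directional libraries were made from polyadenylated RNA after CTAB extraction, per the labels' protocols. The submitters' processing notes name Bowtie and edgeR as tools of the authors, with no role or version. The steps from reads to contigs, counts and codes, and any filter, were not given in the sources used here.

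Of 45411 Jatropha and 49582 Vernicia contigs, 22599 and 21608 carried a usable code, and 3 malformed Vernicia codes were left out. RPKM was summed by code, over 13319 and 13332 codes. The tables were normalized separately, so species differences were taken between ratios formed within each species. RPKM levels of the 2 species are printed side by side but are not on 1 scale. In libraries 7 and 8, compared codes held 46.6% and 64.2% of all Jatropha RPKM and 62.7% and 63.8% of all Vernicia RPKM. The strongest contig held 25.1% of Jatropha library 7, 12.1% of Jatropha library 8 and at most 3.76% of a Vernicia library. Of the compared codes, 2783 had 1 contig in each species. Read totals are unknown, so no counting error is given.

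Named are, by rule, the 15 codes with the largest species difference in each direction, the 10 with the largest shared ratio per direction and the 3 most abundant of each list with at least 3 codes compared, of which the text prints a selection. Extreme codes without an assigned role are printed at most 2 per direction. The members, the lists and the family sums were chosen with earlier results of these data known. The steps were tested on simulated data. Python 3.11.15, pandas 2.3.3, NumPy 2.4.6 and matplotlib 3.10.9 were used.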

Additional observations from a re-analysis of the deposited data

Results flagged for a closer look

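These codes lay at least 4-fold apart in opposite directions, lower in library 8 of Jatropha and higher in library 8 of Vernicia, or the reverse, on the centred scale, and the difference was not tested. PR1 (AT2G14610) differed by -9.99 and L1L (AT5G47670) by -4.17, both lower in library 8 of Jatropha. KCS10 (AT2G26250) differed by 5.04 in the reverse direction. Without centring, L1L in Vernicia had a log2 ratio of 1.51 and KCS10 in Jatropha one of 1.71, so neither then reached 4-fold in both species. Of the codes without an assigned role, AT4G36740 differed by -11.65 and AT1G14520 by -9.63, and AT3G44220 by 9.04 and AT1G64950 by 7.87.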

How the results depend on the processing

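No paired analysis was possible because each species has 1 library per number and no test was run. The counts of codes 4-fold apart towards Jatropha, towards Vernicia, 4-fold higher in both and 4-fold lower in both were 345, 530, 114 and 15. Without centring they were 214, 823, 57 and 65. With 10 RPKM required in all 4 libraries they were 122, 167, 26 and 2 among 3135 codes, and with 1 contig per species 136, 231, 31 and 5 among 2783. At 2-fold they were 1039, 1213, 243 and 127. The first pair was 693 and 957 with a limit of 1 RPKM and 731 and 993 without one. Adding 0.1 RPKM gave 30 codes lower in both, and adding 5 RPKM gave 72 higher and 4 lower in both. With the Jatropha ratios shrunk to the Vernicia interquartile range, added after seeing the data, 147 were apart towards Jatropha, 73 higher in both and 3 lower in both. Of 300 list medians under the alternatives 223 moved little, 69 moved and 8 changed sign. CRA1 and the 12S median became -1.67 with the strongest contig and -0.27 after the shrinking. The LEA median became -2.03 with 1 contig each and -0.89 when summed, the photosynthesis median 1.15 and the aquaporin median 0.05 with 10 RPKM in all libraries, the flavonoid median 0.29 when summed and the tocopherol median 0.09 without a limit. The cause was not tested; the photosynthesis and aquaporin values rest on 1 code each.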

Other observations

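Some defence codes, not compared because Jatropha did not reach the limit, were abundant in Vernicia library 8. PR4 (AT3G04720), a chitin-binding defence protein, stood at 6.53 and 4.96 RPKM in Jatropha and at 23.4 and 2778 in Vernicia. A basic chitinase (AT3G12500) stood at 3.75 and 0.81 RPKM in Jatropha and at 15.6 and 798 in Vernicia. Both were thus far higher in library 8 than in library 7 of Vernicia. A dehydrin code, AT2G21490, was instead far higher in library 8 of Jatropha, at 88.0 and 6075 RPKM. It stood at 5.80 and 9.65 RPKM in Vernicia. These codes were chosen after their values were seen.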
